A study of Mus musculus with 3 samples.

Results

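*Gfra1*-negative progenitor spermatogonia were the germ cells of these libraries that carried transcripts of the undifferentiated and progenitor markers and no transcript of *Gfra1*, *Kit* or *Prdm9*. Cells were selected on their UMIs (counted transcript molecules) of 10 genes. A cell was taken when it had 0 UMIs of *Gfra1*, *Kit* and *Prdm9*, at least 1 UMI of *Ddx4* or *Dazl*, at least 1 of *Zbtb16* or *Sall4*, and at least 1 of *Rarg*, *Sox3* or *Neurog3*. By this rule 1336 of 19396 cells with at least 200 detected genes and at most 10% mitochondrial UMIs were progenitors, 928 in the cKO library, 178 in the control library and 230 in the Tomato-depleted library. The cKO library came from *Amh-cre; Scf fl/fl* mice, in which Cre is driven in Sertoli cells, and the control library from *Scf fl/fl* mice, which carry the same floxed alleles without Cre, both at an age of 6 weeks. Both were sorted to remove haploid cells. The Tomato-depleted library came from *Ddx4-creER; R26tdTomato* mice, 8 weeks old and 4 weeks after tamoxifen, with the labelled germ cells sorted out. Each library came from 3 mice on a C57BL/6 background, and each genotype had 1 library. Genotype and library therefore cannot be told apart, and for the Tomato-depleted library age, tamoxifen and sort cannot either. No test across samples was possible, and every interval below covers counting error only.

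Progenitor spermatogonia descend from the GFRA1-positive stem cell pool of the seminiferous epithelium, where GFRA1 and RET receive GDNF from Sertoli and myoid cells. They divide with incomplete cytokinesis into longer chains, lose GFRA1, and gain NEUROG3, SOX3 and the retinoic acid receptor RARG. Retinoic acid then induces STRA8 and KIT and turns them into differentiating spermatogonia. Survival and division of KIT-positive cells depend on SCF (encoded by *Kitl*), which binds KIT. ZBTB16 (PLZF) and SALL4 are transcription factors of the whole undifferentiated pool, and PRDM9 is made in meiotic prophase.

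The deletion could be read in few cells. *Kitl* was at 49.3 CPM (UMIs per 1000000 UMIs, 95% exact Poisson interval 19.8 to 102) in the 15 cKO cells with at least 7 of 14 Sertoli cell markers. The 2 such control cells had 384 CPM (125 to 896), and the 428 such Tomato-depleted cells 118 CPM (107 to 130). These rest on 7, 5 and 417 UMIs, and a 3′ tag need not fall inside the deleted part. In cells with myoid and stromal markers *Kitl* was at 152, 71.6 and 142 CPM. The libraries held 68602272, 90453018 and 195380762 UMIs in 7252, 6264 and 7626 cells. They shared 9 to 15 cell barcodes pairwise, none of them progenitors in both libraries. Progenitors had a median of 18066.5 UMIs in cKO (746 to 67796), 10800 in control (1780 to 90450) and 19084.5 in Tomato-depleted (1767 to 114409), so control progenitors were the shallowest.

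Progenitors made up a far larger share of the cKO germ cells. Among cells with a *Ddx4* or *Dazl* UMI, 928 of 2912 were progenitors in cKO (31.9%, 95% Clopper-Pearson interval 30.2 to 33.6%), 178 of 5125 in control (3.47%, 2.99 to 4.01%) and 230 of 4904 in Tomato-depleted (4.69%, 4.12 to 5.32%). The cKO share was 9.18 times the control share, and 4.07 times when progenitors with a *Stra8* UMI were left out. The denominator differed in kind, because cells with a *Zbtb16* or *Sall4* UMI were 83.9% of germ cells in cKO, 22.4% in control and 31.2% in Tomato-depleted. Within those cells the progenitor share was 38.0% in cKO and 15.5% in control. Among cells that met all positive parts of the rule, had no *Prdm9* UMI and were taken whatever their *Gfra1* and *Kit*, progenitors were 53.8% in cKO, 36.3% in control and 28.1% in Tomato-depleted. In the same marker gate, cells with a *Gfra1* UMI and no *Kit* UMI are called *Gfra1*-positive. They were 25.2% in cKO, 8.16% in control and 11.1% in Tomato-depleted. Cells with a *Kit* UMI are called *Kit*-positive whatever their *Gfra1*, so cells with both are among them. *Kit*-positive cells were 21.0% of the marker gate in cKO, 55.5% in control and 60.8% in Tomato-depleted. These 3 shares add up to the whole gate, so one is lower where the others are higher. Of germ cells, *Kit*-positive cells of the marker gate were 12.4% in cKO, 5.31% in control and 10.2% in Tomato-depleted. After thinning to 5000 UMIs they were 2.17%, 2.49% and 2.98%. *Kit*-positive germ cells outside the gate were not counted, so these are not the shares of all *Kit*-positive germ cells.

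**Figure D1:**
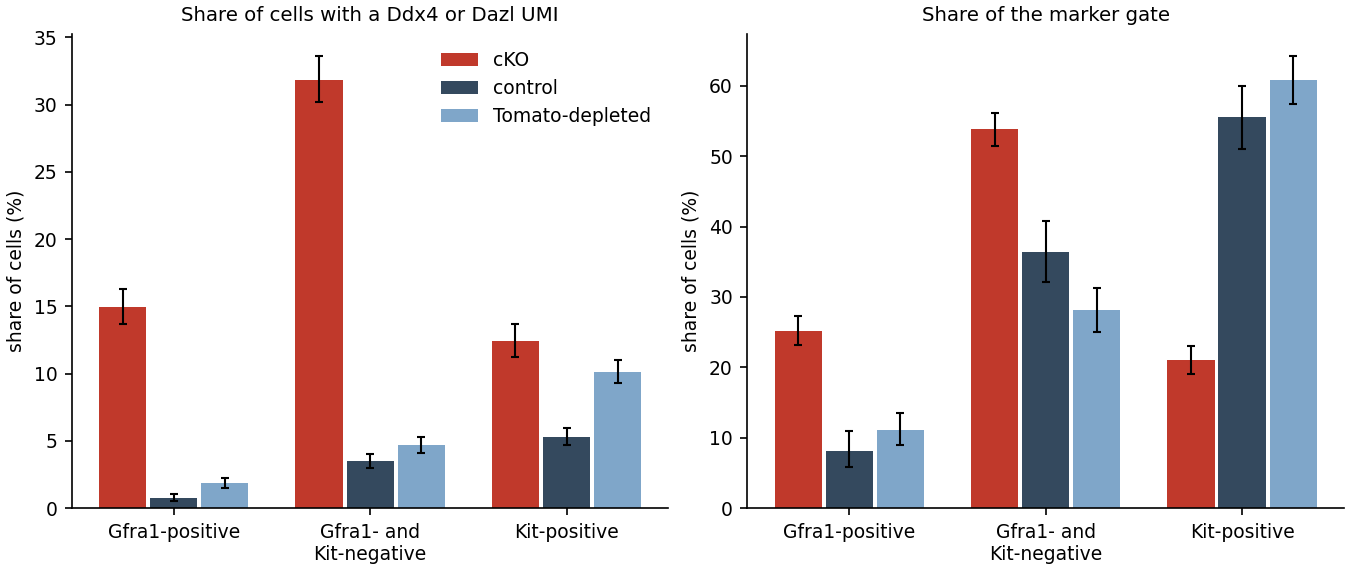
Share (%, vertical axis) of Gfra1-positive, Gfra1- and Kit-negative (the progenitors) and Kit-positive cells of the marker gate, out of germ cells (left) and out of the marker gate (right), in the cKO, control and Tomato-depleted libraries, with 95% Clopper-Pearson intervals. Progenitors stood at 31.9% of germ cells in cKO against 3.47% in control. Kit-positive cells of the marker gate stood at 12.4% against 5.31% of germ cells but 21.0% against 55.5% of the marker gate. Gfra1-positive cells had no Kit UMI, and Kit-positive cells were taken whatever their Gfra1. Kit-positive germ cells outside the gate are not shown.

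An absent transcript depends on depth, so every cell was also thinned to 5000 UMIs. Progenitors were then 28.4% of germ cells in cKO, 4.20% in control and 4.76% in Tomato-depleted, a ratio of 6.76 between cKO and control. Thinning left out 47, 12 and 7 progenitors that were shallower. The germ cells counted fell from 2912 to 2538 in cKO, from 5125 to 3408 in control and from 4904 to 4289 in Tomato-depleted. The ratio thus rests on another set of germ cells, most changed in control. Thinning also moved other cells across the border. Of the thinned progenitors, 14.4% in cKO, 21.7% in control and 25.0% in Tomato-depleted had carried a *Kit* UMI before, and 21.8%, 7.69% and 18.6% a *Gfra1* UMI. Cells lay close to the border on both sides. Those excluded for exactly 1 *Gfra1* UMI numbered 241 in cKO, 28 in control and 47 in Tomato-depleted, and those excluded for exactly 1 *Kit* UMI numbered 163, 63 and 67. Inside it, 225, 63 and 46 progenitors rested on 1 UMI summed over *Rarg*, *Sox3* and *Neurog3*, and 24, 30 and 18 on 1 UMI of both marker sets.

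The 5 positive marker genes of the rule differed in how often they were seen in progenitors and in somatic cells. These genes chose the cells, so their levels only describe the gate. *Sox3* was seen in 86.7% of cKO, 79.2% of control and 91.7% of Tomato-depleted progenitors, and in under 1% of somatic cells, taken as cells without *Ddx4* and *Dazl* and with at least 3 of 15 myoid and stromal markers. *Sall4* was seen in 92.1%, 71.9% and 84.3% of progenitors, and in at most 1% of somatic cells. *Zbtb16* was seen in 95.6%, 87.6% and 95.7%, but also in 19.2%, 15.7% and 12.3% of somatic cells, whose median depths were 5592.5, 5061.5 and 6839.5 UMIs. *Rarg* was seen in 53.0%, 43.8% and 50.9% of progenitors and in 6.21%, 6.53% and 5.03% of somatic cells. *Neurog3*, the transcription factor most used to mark progenitors, was the rarest of the 5, at 26.5% of cKO (95% interval 23.7 to 29.5%), 21.9% of control (16.1 to 28.7%) and 17.8% of Tomato-depleted progenitors (13.1 to 23.4%). After thinning its share was 14.2%, 13.3% and 9.31%, so cKO and control could not be told apart on it at this depth.

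Some cells that met the rule carried large amounts of other cells' transcripts. Pachytene and spermatid genes (42 genes) reached 50 or more per 10000 UMIs in 2 cKO, 6 control and 23 Tomato-depleted progenitors. They held 0.618% of all progenitor UMIs in cKO, 18.1% in control and 29.9% in Tomato-depleted, and the 6 control cells had 53029 to 90450 UMIs. X-linked genes, which are silenced in pachytene spermatocytes, gave a median of 0.0199% of UMIs in the 6 control cells and 0.334% in the 23 Tomato-depleted cells, against 1.93% and 1.91% in the remaining progenitors of these libraries. By these values most cells with late transcripts went against the name of progenitors. Somatic markers (55 genes of Leydig, Sertoli, myoid or stromal, immune and endothelial cells) reached 20 or more per 10000 UMIs in 74 cKO, 7 control and 13 Tomato-depleted progenitors. Both limits were set after the data had been seen. Scrublet called 69 cKO, 8 control and 19 Tomato-depleted progenitors doublets. Between 20 and 50 late transcripts per 10000 lay 1 cKO, 20 control and 69 Tomato-depleted progenitors, and between 10 and 20 somatic transcripts 11, 0 and 7. Leaving out both kinds left 852 cKO, 165 control and 196 Tomato-depleted progenitors, called unmixed below, with median X-linked shares of 1.89%, 1.93% and 1.91%. In cKO, control and Tomato-depleted unmixed progenitors the 11 Leydig cell markers summed to 17.6, 16.6 and 15.7 CPM, with 11, 2 and 7 of them seen. The 14 Sertoli cell markers summed to 226, 183 and 288 CPM (13, 12 and 14 seen), and the 15 myoid and stromal markers to 118, 70.3 and 86.6 CPM (15, 14 and 13 seen). The 15 immune and endothelial markers summed to 21.4, 12.7 and 14.0 CPM (15, 10 and 8 seen). Their part in the results below was not tested.

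**Figure D2:**
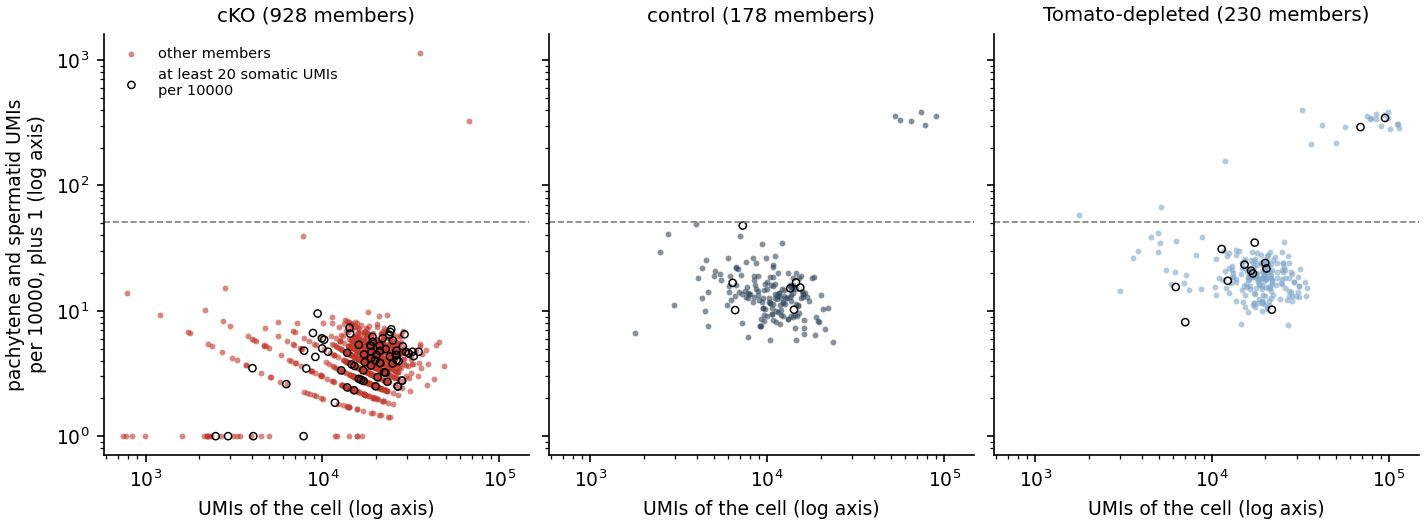
Pachytene and spermatid transcripts per 10000 UMIs, plus 1, of each progenitor (log vertical axis) against its UMIs (log horizontal axis) in the cKO, control and Tomato-depleted libraries, with a dashed line at 50 per 10000. The 2 cKO, 6 control and 23 Tomato-depleted progenitors above the line included those of 53029 to 90450 UMIs in control, and the medians over all progenitors were 3.09, 12.4 and 18.4.

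The low level of these transcripts followed the library as a whole. Their median was 3.09 per 10000 in cKO, 12.4 in control and 18.4 in Tomato-depleted progenitors, and 4.69, 18.9 and 17.2 in the somatic cells of the same libraries. *Ldhc*, a sperm lactate dehydrogenase, was at 4.92 CPM in cKO, 157 in control and 226 in Tomato-depleted unmixed progenitors, against 6.38, 231 and 280 CPM in somatic cells. *Meig1*, which acts in spermatids, was at 13.2, 143 and 278 CPM in progenitors and 5.36, 195 and 419 CPM in somatic cells. *Dmrtb1*, a regulator of the switch from mitosis to meiosis, was at 0.787, 33.7 and 32.2 CPM, and at 0.606, 28.4 and 32.2 CPM in somatic cells. In control and Tomato-depleted these 3 genes were therefore at or near the level of somatic cells, and no difference between progenitors was read from them. The same holds for the pachytene list, 10 of whose 11 measured genes were over 1.5-fold lower in cKO than in control among unmixed progenitors, where 8.39% of all genes were.

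Taken by the rule alone, the genes that differed most between cKO and control progenitors were largely those of other cells. Of 11118 genes with at least 100 UMIs over both libraries, 992 (8.92%) were over 1.5-fold higher and 1722 (15.5%) over 1.5-fold lower in cKO, with a median log2 ratio of 0.03. Without the mixed cells 480 (4.67%) of 10282 genes were higher and 863 (8.39%) lower, with a median of -0.05. The 12 genes with the lowest ratio by the rule included the spermatid genes *Tex36*, *Hils1* and *Tssk1*. *Tex36* had 0 UMIs in cKO and 113 in control progenitors, at least 274-fold lower in cKO against a floor of 3 counts over the group. Between 88.7% and 97.2% of the control UMIs of these 12 genes came from the 6 control cells with late transcripts. Among the 12 highest were *Dcn* and *Mgp* of stromal cells, *C1qa* and *Cd74* of immune cells, and *Cxcl1*. *Cd74* had 477 UMIs in cKO and 5 in control progenitors, and was at 9.37 and 2.21 CPM without mixed cells. *Gm15459*, a processed pseudogene whose reads can be split with near-identical copies, had 620 UMIs in cKO and 0 in control progenitors, at least 28.4-fold higher in cKO. It was also at 44.0 CPM in cKO and 1.60 CPM in control somatic cells. Of these 12 genes, 9 were over 1.5-fold higher in cKO somatic cells too, where the share of all genes was not computed. All further values are of unmixed progenitors.

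The lowest ratios in unmixed progenitors belonged to genes with varied roles. The lowest, among genes with less than 0.5 times the higher progenitor level in somatic cells, were *Prss50*, *Hist1h2ap*, *Pcsk1n*, *Baz1a*, *Tbx1*, *Meioc*, *Cited1*, *Hist1h2aa*, *Plekha7*, *Hist1h2ba* and *Esx1*. *Cited1*, an X-linked transcriptional co-activator (GRCm38 chrX:102247381-102252181), was at 14.8 CPM (12.9 to 16.8) in cKO, 54.8 CPM (44.5 to 66.7) in control and 14.6 CPM in Tomato-depleted progenitors. Its log2 ratio of cKO over control was -1.90 (95% exact conditional binomial interval -2.24 to -1.54), yet the Tomato-depleted library lay with cKO and not with control. *Meioc*, which partners YTHDC2 to sustain meiotic prophase (chr11:102663716-102682237), was at 21.6 CPM (19.3 to 24.0) in cKO and 81.3 CPM (68.7 to 95.6) in control, a log2 ratio of -1.92 (-2.20 to -1.62), while Tomato-depleted progenitors had 27.2 CPM (22.1 to 33.2). *Tbx1*, a T-box transcription factor (chr16:18580979-18590671), was at 4.39, 21.0 and 7.70 CPM in the same order, and *Prss50*, a testis serine protease (chr9:110857967-110864629), at 2.36, 36.5 and 7.98 CPM. The Tomato-depleted level was nearer to control than to cKO for 1 of these 11 genes, *Hist1h2ap*, where it was above both, and nearer to cKO for the rest.

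The same 11 genes were also read in deeper progenitors and in other cells of the libraries. Progenitors with at least 10000 UMIs (769 in cKO and 95 in control) were read alone, an alternative added after the data had been seen. They are part of the cells that chose the genes, so they give no independent check. In them all 11 were over 1.5-fold lower in cKO, with log2 ratios from -3.36 to -0.70, though the interval of *Esx1* (-1.30 to 0.01) included no change. *Meioc* was then at 21.0 CPM in cKO and 48.4 CPM in control, and *Cited1* at 14.8 and 39.9 CPM. After thinning to 5000 UMIs, *Cited1* was seen in 8.31% of cKO, 27.3% of control and 15.8% of Tomato-depleted progenitors, and *Meioc* in 9.33%, 20.9% and 14.2%. All 11 were also over 1.5-fold lower in cKO among *Kit*-positive cells, 5 of 11 among *Gfra1*-positive cells, and 9 of 11 among somatic cells, the exceptions being *Tbx1* and *Cited1*. The share of all genes over 1.5-fold lower in each of these kinds of cell was not computed, so the counts lack a background. *Meioc* was at 0.140 CPM in cKO and 4.79 CPM in control somatic cells, and *Prss50* at 0.140 and 5.11 CPM. How far background transcripts enter these ratios was not tested. The histone genes *Hist1h2aa* and *Hist1h2ba*, testis variants of H2A and H2B, and *Hist1h2ap* share sequence with near-identical copies, and their counts are uncertain.

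Genes with the highest ratios were less tied to a known role in germ cells. The 12 were *Gm34680*, *Ptcra*, *Ubash3a*, *Gm28578*, *Gm13075*, *Loxl2*, *Snhg9*, *AC160336.1*, *Rps2-ps10*, *H2-Q2*, *mt-Atp6* and *Gm4316*. *Ptcra*, known as the alpha chain of the pre-T-cell receptor (chr17:46755663-46763712), was at 69.8 CPM (65.7 to 74.1) in cKO, 12.7 CPM (23 UMIs) in control and 23.4 CPM (18.7 to 28.9) in Tomato-depleted, a log2 ratio of 2.43 (1.86 to 3.12). It was seen in 33.8%, 7.88% and 12.8% of progenitors and stood at 3.45, 0.959 and 7.21 CPM in somatic cells. *Ubash3a*, a suppressor of T-cell receptor signalling, had 258 UMIs in cKO, 3 in control and 45 in Tomato-depleted progenitors, which is 16.9, 1.66 and 12.4 CPM. *Loxl2*, a lysyl oxidase of the extracellular matrix, was at 60.4, 17.1 and 33.0 CPM. For 11 of the 12 genes the Tomato-depleted level lay on the control side of cKO, and for 2 it was nearer to control than to cKO on the log scale. Of the 12, 9 were over 1.5-fold higher in cKO somatic cells as well, where the share of all genes was not computed. All 12 were over 1.5-fold higher in progenitors with at least 10000 UMIs, which are part of the cells that chose these genes and give no independent check. *Rps2-ps10* is a pseudogene with a near-identical parent, and *Gm13075* and *Snhg9* are annotated as antisense to other genes, so their counts are uncertain.

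**Figure D3:**
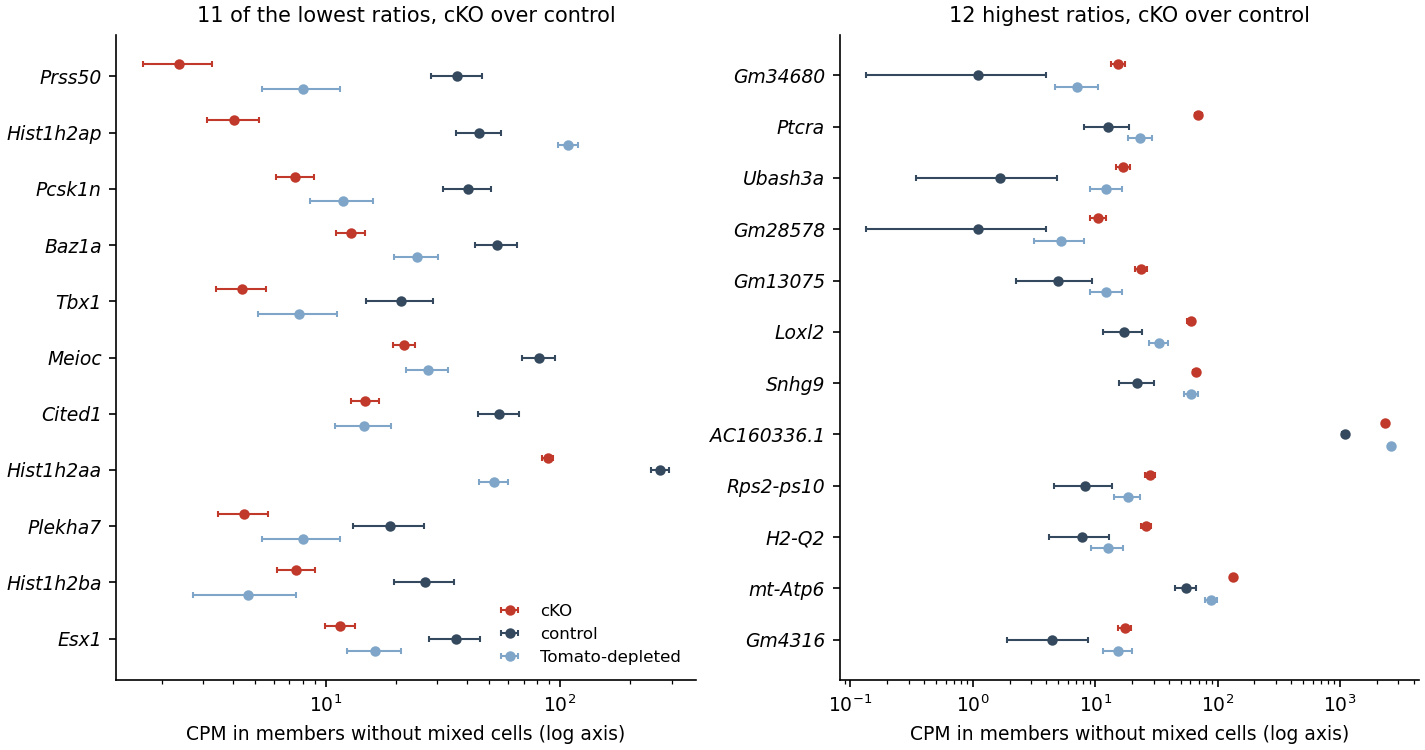
CPM (log horizontal axis) of the genes with 11 of the lowest (left) and 12 highest (right) ratios of cKO over control in unmixed progenitors, in the cKO, control and Tomato-depleted libraries, with 95% exact Poisson intervals. Tomato-depleted points lay near the cKO points for most genes on the left, such as *Cited1* at 14.8 CPM in cKO, 54.8 CPM in control and 14.6 CPM in Tomato-depleted, and for *Hist1h2ap* beyond the control point.

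*Stra8*, a retinoic acid target that licenses entry into meiosis, was higher in cKO progenitors. *Stra8* (chr6:34920163-34939344) was at 151 CPM (145 to 157) in cKO and 89.6 CPM (76.3 to 105) in control, while Tomato-depleted progenitors had 84.4 CPM (75.3 to 94.4). The log2 ratio of cKO over control was 0.75 (0.52 to 0.99), and 0.96 (0.68 to 1.27) in progenitors with at least 10000 UMIs. It was seen in 68.5% of cKO, 30.3% of control and 34.7% of Tomato-depleted progenitors, and in 43.4%, 30.2% and 31.1% after thinning to 5000 UMIs. At most 2.83% of somatic cells had a UMI of it. The *Gfra1*-positive cells of the marker gate had 124 CPM of *Stra8* in cKO, 153 CPM in control and 123 CPM in Tomato-depleted. Among them cKO was therefore not higher than control, and in control and Tomato-depleted they stood above the progenitors. *Sohlh1* and *Sohlh2*, bHLH factors needed for spermatogonial differentiation, were also higher in cKO. *Sohlh1* (chr2:25842995-25847248) was at 341, 222 and 251 CPM in cKO, control and Tomato-depleted, and *Sohlh2* at 35.6, 23.2 and 31.6 CPM. The log2 ratios were 0.62 (0.47 to 0.77) and 0.60 (0.16 to 1.10).

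As a whole, the differentiation list was centred near no change. Of its 22 genes 19 were measured, of which 3 (*Stra8*, *Sohlh2* and the transketolase-like *Tktl1*) were over 1.5-fold higher and 4 (*Prss50*, *Cited1*, *Ccnd1* and *Elavl2*) over 1.5-fold lower in cKO. Both were larger shares than the 4.67% higher and 8.39% lower of all genes. The median log2 ratio was 0.01, beside -0.05 over all genes. *Elavl2*, an RNA-binding protein, was under 1.5-fold in progenitors with at least 10000 UMIs (log2 ratio -0.29). *Ccnd1*, the D-type cyclin of the G1 phase (chr7:144929931-144939925), was at 50.3 CPM in cKO, 98.5 CPM in control and 49.5 CPM in Tomato-depleted progenitors. Other members had like levels in all 3 libraries. *Dmrt1*, a transcription factor that holds back meiosis in spermatogonia, was at 216, 227 and 199 CPM, *Dnmt3b* at 84.7, 80.8 and 80.6 CPM and *Sycp3* at 245, 238 and 270 CPM. The log2 ratio intervals for cKO over control were -0.22 to 0.08, -0.18 to 0.33 and -0.10 to 0.19.

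The progenitor list also centred on no change, with a median log2 ratio of 0.03 over 17 of 21 genes. Of these, 2 were over 1.5-fold higher and 4 lower, both larger shares than the 4.67% higher and 8.39% lower of all genes. *Sohlh1* and *Utf1*, a chromatin factor of pluripotent cells, were the 2 higher, *Utf1* at 24.3, 13.8 and 24.5 CPM in cKO, control and Tomato-depleted. With at least 10000 UMIs *Utf1* was under 1.5-fold, at a log2 ratio of 0.41 (-0.17 to 1.12). The lower 4 were the X-linked homeobox genes *Esx1* and *Rhox13*, *Lhx2* and the forkhead gene *Foxc2*. *Rhox13* was at 19.6, 43.7 and 23.1 CPM. The interval of *Foxc2* (-1.22 to 0.17) and that of *Lhx2* (-1.41 to 0.10) included no change. Established progenitor genes were close. *Lin28a*, an RNA-binding protein, was at 116 CPM in cKO, 113 CPM in control and 177 CPM in Tomato-depleted, *Nanos3*, another RNA-binding protein, at 99.1, 80.8 and 109 CPM, and *Upp1*, uridine phosphorylase, at 103, 101 and 157 CPM. *Egr4* was at 342, 344 and 329 CPM and *Foxo1* at 169, 173 and 190 CPM. *Uchl1*, the abundant ubiquitin hydrolase of spermatogonia, was at 1356, 981 and 1133 CPM, a log2 ratio of 0.47 (0.40 to 0.54) that stayed under 1.5-fold.

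Stem cell genes, of which *Gfra1* was excluded by the rule, were mostly low in level. Of 24 genes 13 were measured, 3 over 1.5-fold higher (*Id1*, *Id3* and *Aldh2*) and 2 lower (*Etv5* and *Tcl1*), with a median of 0.00. Both were larger shares than the 4.67% higher and 8.39% lower of all genes. *Id1* and *Id3*, inhibitors of bHLH factors, were at 14.3 and 18.2 CPM in cKO and 3.87 and 2.77 CPM in control progenitors, but at 560 and 2525 CPM in cKO and 275 and 1133 CPM in control somatic cells. *Ret*, the signalling co-receptor of GFRA1, was at 27.5, 37.6 and 45.9 CPM in cKO, control and Tomato-depleted progenitors, with a log2 ratio of -0.46 (-0.83 to -0.06), and of -0.32 (-0.75 to 0.18) with at least 10000 UMIs. *Etv5*, a target of GDNF and FGF signals, was at 6.42, 10.5 and 9.63 CPM, and its interval (-1.43 to 0.08) included no change. *Id4*, often used to mark stem cells, was at 21.0, 20.5 and 29.7 CPM, below its level in somatic cells of 38.9, 38.3 and 70.4 CPM.

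Early meiotic genes were present at substantial levels in all 3 libraries. Of 30 genes 25 were measured, 1 over 1.5-fold higher (the meiotic cohesin *Rec8*, on 103 and 6 UMIs, interval -0.15 to 2.50) and 2 lower (*Meioc* and *M1ap*), with a median of -0.10. These shares were near the 4.67% higher and 8.39% lower of all genes. *M1ap* was under 1.5-fold with at least 10000 UMIs, at -0.54. *Sycp1*, a synaptonemal complex protein, was at 362 CPM in cKO, 377 CPM in control and 360 CPM in Tomato-depleted progenitors. *Tex15* was at 704, 675 and 473 CPM and *Smc1b*, another meiotic cohesin, at 415, 347 and 201 CPM. These levels were over 10 times those in somatic cells (*Sycp1* 3.26, 19.8 and 7.03 CPM), a wider gap than for the pachytene genes above.

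Most cell cycle genes were under 1.5-fold, and their counts are set beside 4.67% higher and 8.39% lower of all genes. The 42 S phase genes had a median log2 ratio of 0.19, the 53 G2/M genes of -0.07. Over 1.5-fold higher in cKO were 5 S phase genes, *Ung*, *Prim1*, *Wdr76*, *Pola1* and *Chaf1b*, a larger share than that of all genes. Only *Rrm2* was lower, a smaller share than that of all genes. *Prim1*, the DNA primase subunit, was at 82.0, 44.3 and 34.1 CPM in cKO, control and Tomato-depleted progenitors. The 4 G2/M genes that were lower were *Nusap1*, *Ckap2l*, *Ncapd2* and *Plk1*, a share near that of all genes, and none was higher. *Mki67*, the proliferation marker, was at 224, 269 and 89.1 CPM and *Top2a* at 381, 363 and 194 CPM, so both were lowest in Tomato-depleted progenitors. In progenitors with at least 10000 UMIs, 6 of these 10 S phase and G2/M genes were under 1.5-fold, *Wdr76* at a log2 ratio of 0.55, *Pola1* at 0.57, *Rrm2* at -0.41, *Nusap1* at -0.31, *Ckap2l* at -0.58 and *Ncapd2* at -0.57. Summed over each list, S phase genes made 5882, 5094 and 4127 CPM and G2/M genes 9201, 9057 and 6224 CPM in cKO, control and Tomato-depleted.

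Among the 11 measured cell cycle inhibitors, 3 were over 1.5-fold lower (*Cdkn1b*, *Rbl1* and *Gadd45a*) and *Btg2* was higher, beside 8.39% lower and 4.67% higher of all genes. *Cdkn1b* (chr6:134920401-134925513), which encodes the CDK inhibitor p27, was at 66.2 CPM (62.2 to 70.4) in cKO and 128 CPM (112 to 145) in control, while Tomato-depleted progenitors had 108 CPM (97.9 to 120). The log2 ratio of cKO over control was -0.95 (-1.16 to -0.74), and -1.16 (-1.38 to -0.93) in progenitors with at least 10000 UMIs. *Rbl1* at -0.17 and *Gadd45a* at -0.48 were under 1.5-fold in these deeper cells. For *Cdkn1b* the Tomato-depleted library lay nearer to control. Somatic cells held 118, 154 and 131 CPM, above the progenitors.

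Genes of the pathways around KIT and of retinoic acid are set beside 4.67% higher and 8.39% lower of all genes. Of 25 genes for KIT, PI3K and mTOR signalling, 1 (the ribosomal protein *Rps6*, 265, 407 and 493 CPM in cKO, control and Tomato-depleted) was over 1.5-fold lower and none higher, with a median of -0.04. Of 7 measured retinoic acid genes, *Cyp26b1*, which degrades retinoic acid, was higher. The receptor *Rara* and *Rbp4*, a retinol carrier of plasma, were lower, and the median was -0.23. Both were larger shares than those of all genes, though on few genes. *Rara* was at 25.4, 43.7 and 33.0 CPM. *Cyp26b1* was at 6.56, 1.66 and 2.48 CPM, but at 2188, 2297 and 594 CPM in somatic cells. Of 14 GDNF and FGF signalling genes, *Dusp6* was higher and *Etv5* lower, with a median of -0.01. Of 13 Wnt genes, the receptors *Fzd2* and *Lgr4* were lower, a larger share than that of all genes, and none was higher.

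Housekeeping and chromatin lists stood near or below the background of 4.67% higher and 8.39% lower. No gene of the DNA methylation list (11 measured) was past 1.5-fold, and of 19 piRNA, 20 cholesterol synthesis, 33 nuclear respiratory chain and 21 chromatin repressor genes 0 were higher and 1, 1, 1 and 2 lower. In 4 further lists the share past 1.5-fold was larger than that of all genes in at least 1 direction. Their medians lay between -0.23 and 0.21. Of 17 apoptosis and p53 genes, 3 were lower (*Pmaip1*, *Apaf1* and *Phlda3*) and none higher, a median of -0.18. *Pmaip1*, a pro-apoptotic BH3-only protein, was at 10.0, 22.1 and 7.70 CPM in cKO, control and Tomato-depleted. Of 18 glycolysis genes, 4 were lower (*Slc2a3*, *Pfkp*, *Pgk1* and *Ldha*), while the summed UMIs of the list gave a log2 ratio of 0.16 and the median was -0.23. *Ldha* was at 18.2, 40.9 and 82.2 CPM in progenitors and 259, 281 and 290 CPM in somatic cells. Of 17 stress genes that tissue dissociation can induce, 3 were higher (*Fosb*, *Junb* and *Egr1*) with a median of 0.21. *Egr1* was at 104, 64.2 and 115 CPM in progenitors and at 2764, 2123 and 1488 CPM in somatic cells. Of 13 adhesion genes, *Cd24a* was higher and *Epcam*, *Nectin3* and *Tspan33* lower, the median 0.08 and the summed log2 ratio -0.17. *Epcam*, a surface protein of spermatogonia, was at 126, 207 and 88.3 CPM, and under 1.5-fold with at least 10000 UMIs (log2 ratio -0.44).

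**Figure D4:**
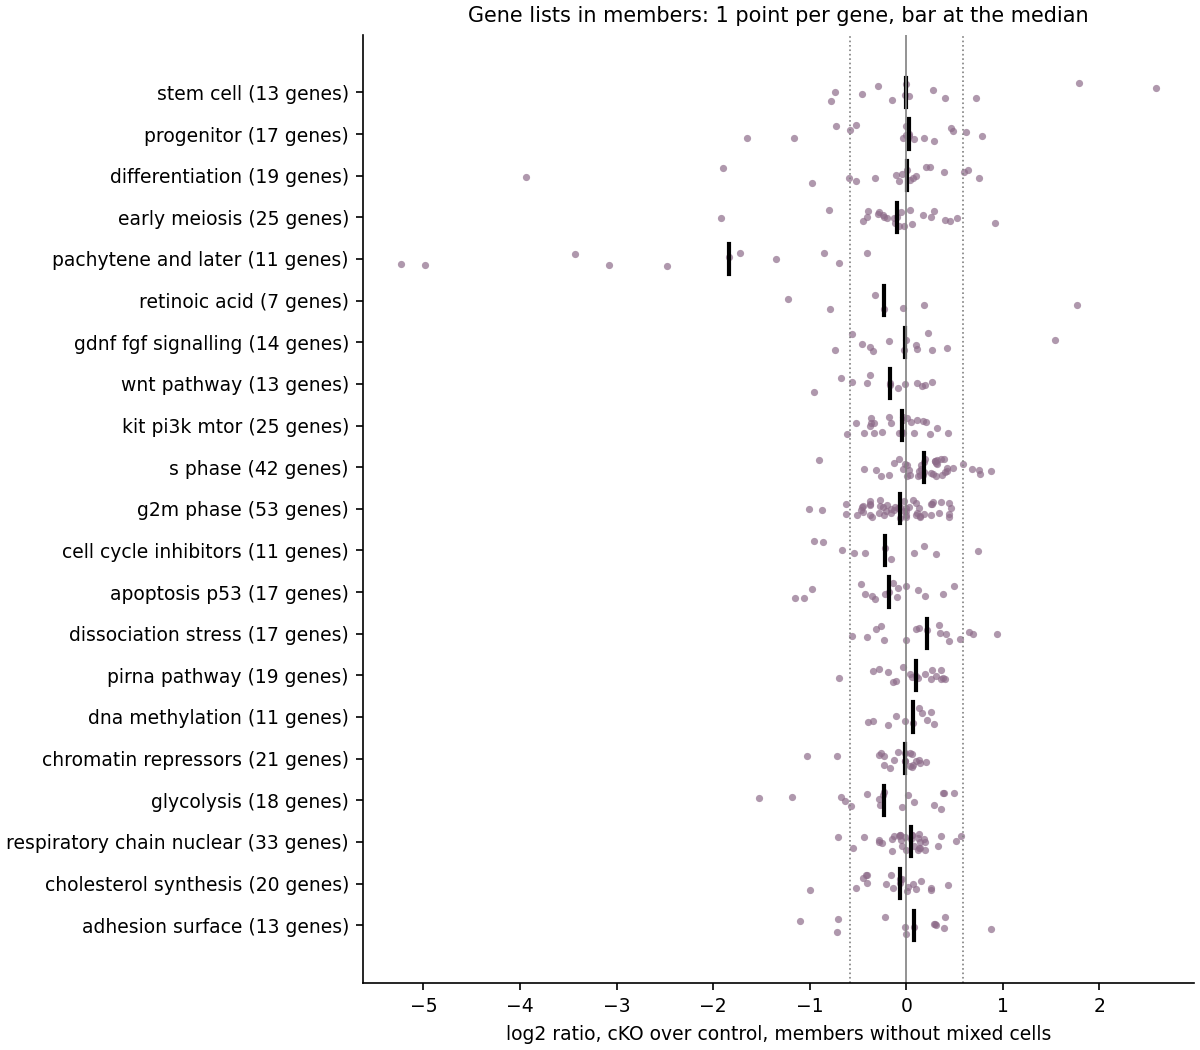
Log2 ratios of cKO over control in unmixed progenitors (horizontal axis) for the genes of 21 lists (1 point per gene with at least 100 UMIs, black bar at the median, dotted lines at 1.5-fold). The medians lay between -0.23 and 0.21 except for pachytene and later genes at -1.83, whose summed level in control was 878 CPM in progenitors and 1514 CPM in somatic cells.

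The place of progenitors between their neighbours in the marker gate differed between libraries. Between progenitors and *Kit*-positive cells, 76 of 7075 genes (1.07%) were over 1.5-fold different in cKO, against 1216 (17.2%) in control and 1723 (24.4%) in Tomato-depleted. Of the 643 genes that were over 1.5-fold higher in the *Kit*-positive cells of control, 44 passed 1.5-fold in the same direction in cKO (median log2 ratio 0.22, and 128 with a median of 0.35 with at least 2 *Kit* UMIs) and 471 in Tomato-depleted (median 0.82). Of the 573 that were lower, 14 did so in cKO and 387 in Tomato-depleted. Progenitors rested on 15253588 UMIs in cKO, 1807709 in control and 3635372 in Tomato-depleted, and fewer UMIs let more genes pass by counting error, whose part in these counts was not tested. The *Kit*-positive cells of cKO held less *Kit*, 95.3 CPM against 228 CPM in control and 277 CPM in Tomato-depleted. In somatic cells *Kit* was at 18.4 CPM in cKO, 0.959 CPM in control and 2.59 CPM in Tomato-depleted. Only 3.73%, 0.456% and 1.57% of these somatic cells had a *Kit* UMI, so the level came from few cells. Which cells these were was not tested. With at least 2 *Kit* UMIs, a limit chosen after the data had been seen, 227 of 6506 genes (3.49%) differed in cKO, 1271 (19.5%) in control and 1618 (24.9%) in Tomato-depleted. The cKO progenitors and *Kit*-positive cells thus remained closer to each other under both limits. Against *Gfra1*-positive cells, 29 of 4515 genes (0.642%) were past 1.5-fold in cKO, 342 (7.57%) in control, where only 38 unmixed *Gfra1*-positive cells were found, and 78 (1.73%) in Tomato-depleted.

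Most single genes of the stem cell, progenitor and differentiation lists had a smaller step in cKO. Of these genes, 37 had at least 100 UMIs over the 3 kinds of cell in each library. The log2 ratio of progenitors over *Kit*-positive cells was smaller in size in cKO than in control for 35 of them. It was larger for *Ccnd2* and *Esx1*, and the median size was 0.27 in cKO and 0.62 in control. The share of all genes with a smaller step in cKO was not computed, so the count lacks a background. Progenitors rested on fewer UMIs in control than in cKO, and the part of counting error in these sizes was not tested. *Ccnd2*, another D-type cyclin, had -0.79 (-0.88 to -0.70) in cKO and -0.30 (-0.52 to -0.08) in control. *Prss50*, with 82 UMIs in cKO, was not among the 37 and had -1.17 in cKO and 0.56 in control. *Nanos3* was at 99.1 CPM in progenitors and 64.1 CPM in *Kit*-positive cells of cKO, at 80.8 and 17.3 CPM in control, and at 109 and 29.1 CPM in Tomato-depleted. *Ret* was at 27.5 and 24.6 CPM in cKO, 37.6 and 7.87 CPM in control, and 45.9 and 9.23 CPM in Tomato-depleted. For both genes the step was smaller in cKO. *Cdkn1b* was at 66.2 CPM in progenitors and 35.2 CPM in *Kit*-positive cells of cKO, but at 128 and 9.44 CPM in control and 108 and 10.9 CPM in Tomato-depleted. *Cited1* was at 14.8 and 36.1 CPM in cKO, 54.8 and 213 CPM in control, and 14.6 and 148 CPM in Tomato-depleted. *Stra8* was higher in *Kit*-positive cells of every library, at 374 CPM in cKO, 510 CPM in control and 731 CPM in Tomato-depleted, against 151, 89.6 and 84.4 CPM in progenitors. *Etv5* marked the other side, with 27.6 CPM in *Gfra1*-positive cells and 6.42 CPM in progenitors of cKO, 24.3 and 10.5 CPM in control, and 54.6 and 9.63 CPM in Tomato-depleted.

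**Figure D5:**
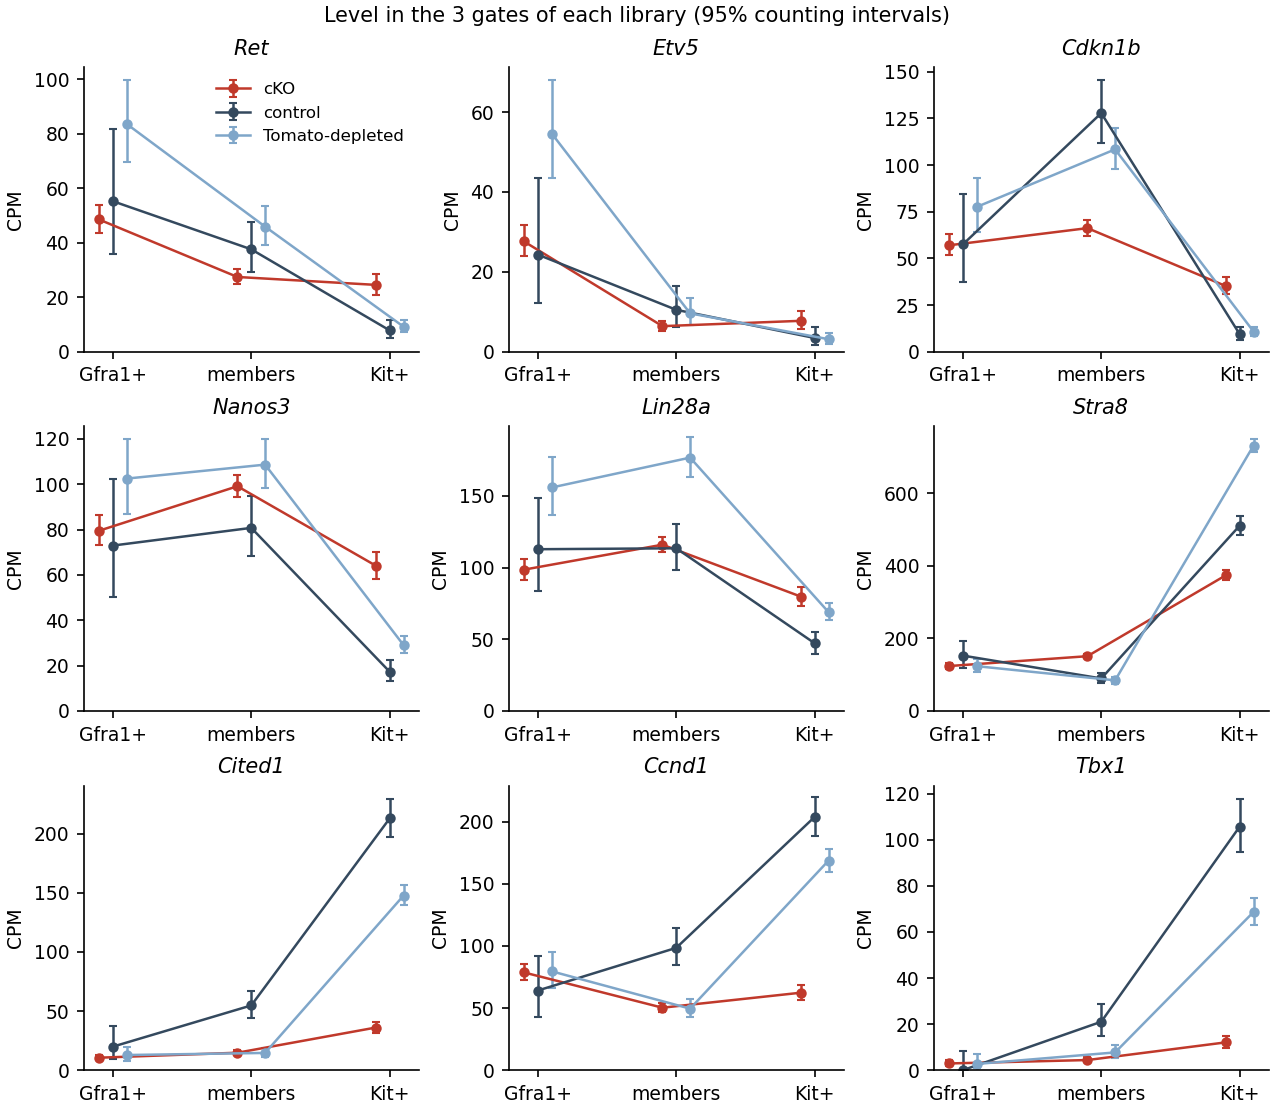
CPM (vertical axis from 0) of 9 genes in Gfra1-positive cells, progenitors (marked members) and Kit-positive cells of the cKO, control and Tomato-depleted libraries, unmixed cells only, with 95% exact Poisson intervals. The step between progenitors and Kit-positive cells was smaller in cKO for the genes plotted, as for *Nanos3* (99.1 and 64.1 CPM in cKO, 80.8 and 17.3 CPM in control) and *Cited1* (14.8 and 36.1 CPM in cKO, 54.8 and 213 CPM in control).

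Progenitors with a *Neurog3* UMI were compared with those without. *Mki67* was lower in *Neurog3*-positive progenitors of each library, at 186 against 238 CPM in cKO (229 and 623 cells), 108 against 325 CPM in control (38 and 127 cells) and 38.5 against 102 CPM in Tomato-depleted (37 and 159 cells). *Stra8* was lower as well, at 132 against 158 CPM in cKO, 43.3 against 105 CPM in control and 53.1 against 92.7 CPM in Tomato-depleted. *Nanos3* was higher, at 119 against 91.1 CPM, 119 against 67.6 CPM and 151 against 97.5 CPM. *Ddit4*, an inhibitor of mTOR, was higher too, at 51.7 against 28.6 CPM in cKO, 69.3 against 43.8 CPM in control and 99.5 against 73.2 CPM in Tomato-depleted. In control the log2 interval of *Ddit4* (-0.01 to 1.31) included no change. *Sox3* and *Rarg* were not compared, since the rule requires a UMI of either in cells without *Neurog3*. The median depths of *Neurog3*-positive and -negative progenitors were 18290 and 17867 UMIs in cKO, 11583 and 10374 in control, and 19971 and 18264 in Tomato-depleted.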

How the data were processed

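Testis cells were profiled on the Chromium platform in 3 libraries, 1 per genotype, each from 3 mice. The authors deposited UMI counts per gene and cell, made with Cell Ranger 2.1.1 on GRCm38 per the submitters' processing notes, which also name Seurat 3.1. No source used here says whether counting used strand. The deposited table of the Tomato-depleted library also held the 6264 control cells and 149 cells with cKO barcodes, and only its own 7626 cells were used. Of gene names, 99.9% matched the annotation.

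The members and gene lists were chosen with earlier results of these data known. Cells had at least 200 genes and at most 10% mitochondrial UMIs, with no upper limit. UMIs were summed over progenitors per library and given as counts per 1000000 (CPM) with exact Poisson intervals. Shares had Clopper-Pearson intervals, and log2 ratios of cKO over control (0.5 added to each count) exact conditional binomial intervals, all at 95%. Genes with at least 100 UMIs over both libraries entered, and a gene was counted as higher or lower past 1.5-fold, by size and without a test. Counts of 0 were bounded with 3 counts. Named genes were the 12 highest and 12 lowest by the interval end nearest to no change, the 10 genes of the rule, and list members, of which 2 genes are not reported here. Further choices were made after the data had been seen, namely the limits for mixed cells, the limit of 0.5 times the higher progenitor level in somatic cells, the 2 *Kit* UMIs, the 7 Sertoli markers and the 10000 UMIs. Whether the Tomato-depleted library was nearer to cKO or control was read on log2(CPM plus 1). Doublets called with Scrublet (expected rate 0.06) were kept and left out in an alternative. Python 3.11.15, NumPy 2.4.6, SciPy 1.17.1, pandas 2.3.3, scanpy 1.11.5 and matplotlib 3.10.9 were used. The computation of ratios and intervals was tested on simulated data. Alternatives covered depth, gene limits, doublets, the rule, scaling, averaging, the count minimum and mixed cells.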

Additional observations from a re-analysis of the deposited data

Results flagged for a closer look

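For 10 named or listed genes the interval of the log2 ratio of cKO over control lay on one side of no change in unmixed progenitors and on the other side in *Kit*-positive cells of the same libraries, with at least 1 of the ratios past 1.5-fold. With 1 library per genotype the difference between these pairs was not tested. The ratios come from the same counts as the steps between progenitors and *Kit*-positive cells above, so they are not a separate result. *Ptcra* had a log2 ratio of 2.43 in progenitors and -0.29 in *Kit*-positive cells. *Stra8* had 0.75 and -0.45, and *Crabp1*, a retinoic acid-binding protein, 0.18 and -0.70. The other 7 were lower in cKO progenitors and higher in cKO *Kit*-positive cells. *Cdkn1b* had -0.95 and 1.88, *Ret* -0.46 and 1.62 (its progenitor interval included no change with at least 10000 UMIs, -0.75 to 0.18), and *Socs3*, an inhibitor of cytokine signalling, -0.56 and 1.32. *Ddit4* had -0.53 and 1.19, *Eno1*, a glycolytic enolase, -0.41 and 0.74, the receptor *Fgfr1* -0.56 and 0.64, and the Wnt effector *Lef1* -0.41 and 0.61.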

How the results depend on the processing

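No paired analysis was possible because each genotype had 1 library, and none could be left out. The progenitor share of germ cells in cKO over control, 9.18 by the rule, was 6.76 after thinning to 5000 UMIs, 12.1 with at least 2 UMIs of both marker sets and 4.07 without progenitors carrying a *Stra8* UMI. The 992 genes over 1.5-fold higher in cKO became 284 after thinning, 111 with at most 3500 detected genes per cell (the limit of the study, which left 72 cKO and 38 control progenitors and 1011 genes), 616 with at most 7500 genes, 624 without *Stra8*-positive cells, 2115 with a count minimum of 20, 564 without cells with late transcripts, 480 without either kind of mixed cell and 510 when cells under 10000 UMIs were left out as well. The 1722 lower genes became 435 after thinning, 106 with at most 3500 genes, 1057 without *Stra8*-positive cells, 3632 with a minimum of 20, 911 without cells with late transcripts, 863 without either kind and 749 in the deeper ones. The number of gene lists whose summed ratio was over 1.5-fold higher was 3 by the rule, 1 after thinning, without doublets and without mixed cells, and 0 with at most 3500 genes and in the deeper cells. The number of lower lists was 2 by the rule, 4 with at most 3500 genes and without doublets, and 1 with at most 7500 genes. Directions turned for *C1qa* (-1.94) and *Cd74* (-1.60) after thinning, for *Hmgb4* (1.07) with at most 3500 genes, and for *Il1b* (-0.31) without doublets. The summed Leydig marker list, 0.82 by the rule, was -0.60 without doublets and -0.39 without cells with somatic transcripts. It was -0.37 without either kind of mixed cell, also in the deeper cells. The list rested on 2 measured genes by the rule and on 1 without mixed cells, where its interval (-1.03 to 0.41) included no change. The causes were not tested. The settings placed the median log2 ratio of all genes between -0.05 and 0.07. The control library limits the precision, with 178 progenitors and 2300977 UMIs in them.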
